A study of Mus musculus with 24 samples.

Results

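The lysozyme genes Lyz2 and Lyz1 were followed across macrophages of both genotypes, because the Cre driver used to delete the floxed gene sits in Lyz2. Every non-control spot of the arrays whose gene name was Lyz1 or Lyz2 was taken, 2 of the 37074 gene names on the array, which gave 3 probes of 56605 gene probes, 2 for Lyz2 and 1 for Lyz1. All 3 were well above background on 24 of 24 arrays, 0 gene spots were saturated, and all 3 entered the 39038 probes tested. The WT group came from Slc2a1 fl/fl mice, which carry floxed alleles of the glucose transporter gene Slc2a1 (GLUT1) without Cre. The KO group came from LysM-Cre x Slc2a1 fl/fl mice, termed Slc2a1M-/- by the submitters, in which the lysozyme M promoter drives Cre in myeloid cells. Both groups therefore carried the floxed alleles, and the allele with Cre was carried by the KO group alone. The number of Cre copies per mouse, the age of the mice and the deleted exons were not given in the sources used here. Bone marrow cells were grown for 6 days in M-CSF at 20 ng/ml and were then left unstimulated (M0), treated with LPS at 5 ng/ml and IFNγ at 10 ng/ml (M1), or treated with IL-4 at 10 ng/ml (M2) for 24 hours. Total RNA was labelled with Cy3 and hybridised to 1-colour arrays, with 4 arrays labelled as biological replicates in each of the 6 groups. Their number limits the precision of every value.

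Lysozyme cleaves the peptidoglycan of bacterial cell walls. Mice have a pair of neighbouring copies. Lyz2 encodes lysozyme M, the form made by macrophages, monocytes and neutrophils and one of their most abundant transcripts, while Lyz1 encodes lysozyme P, best known from Paneth cells of the small intestine. In the LysM-Cre knock-in line the Cre coding sequence was placed at the translation start of Lyz2, so the line is at the same time a disrupted Lyz2 allele. In RNA from a whole culture, fewer cells that express a gene and less RNA per cell cannot be told apart.

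The probes lie on the minus strand of chromosome 10 in build mm9, as the array files give it. The first Lyz2 probe lies at chr10:116719175-116719234 and covers bases 94 to 153 of the annotated transcript. In the RefSeq table of starts the first ATG after the Lyz2 start is at base 31, so this probe reads message just 3′ of the start codon, and it is called the 5′ probe. The other Lyz2 probe lies at chr10:116714450-116714509, bases 1146 to 1205, and is called the 3′ probe. The Lyz1 probe lies at chr10:116724862-116724921, bases 1194 to 1253 of its own transcript, near that transcript's 3′ end. Read along the minus strand, the start of the Lyz1 probe is 5687 bases from the start of the Lyz2 5′ probe. The 5′ probe is shown whole, since it is the place where both Lyz2 probes part in their values. From the 3′ probe and the Lyz1 probe, 30 bases each are shown around their longest shared run. Capitals in the 30-base pieces mark that run, 8 bases. The pieces come from different positions of their transcripts, so the run does not measure how alike the transcripts are. How well either probe matches the transcript of the other gene was not compared.
Lyz2 5′ probe: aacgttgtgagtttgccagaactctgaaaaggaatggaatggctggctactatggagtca
Lyz2 3′ probe, 30 bases at chr10:116714450-116714479: gacagatgagcctgtatcagcaAATAACCA
Lyz1 probe, 30 bases at chr10:116724892-116724921: ccAATAACCAcaggagcaaatctaatctca

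The stretches before the starts of both genes are closely alike. The last 120 bases before each RefSeq start (build GRCm38.p6, minus strand, printed 5′ to 3′ along the gene) are shown because the results set the changes of these neighbouring genes side by side. Capitals mark the 9 bases that differ.
Lyz2, chr10:117282273-117282392: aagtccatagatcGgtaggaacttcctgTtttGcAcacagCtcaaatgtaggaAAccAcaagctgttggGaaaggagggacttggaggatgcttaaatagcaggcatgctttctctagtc
Lyz1, chr10:117292869-117292988: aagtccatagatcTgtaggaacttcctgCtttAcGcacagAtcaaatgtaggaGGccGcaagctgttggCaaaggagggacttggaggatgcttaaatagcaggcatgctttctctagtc
The last 50 of these bases were identical, and 111 of 120 (92.5%) matched in all. The first 50 transcribed bases matched at 49 positions. The letters AGGAAGT, an ETS-type core of the kind bound by PU.1, were found on either strand 1 time in the 250 bases before each gene, as they were in 7.69% of 32851 promoters of the same length. A C/EBP-type half-site pair written TTGCNNAA was found 0 times before Lyz2 and 1 time before Lyz1, against 9.56% of promoters with a match. These matches describe letters, not bound sites.

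The arrays were printed on 3 slides, each with 1 complete set of the 6 groups and 1 further WT and KO pair. The 3 further pairs (M0 replicate 2, M1 replicate 3 and M2 replicate 4) are called set 4. They stood apart from the other 18 arrays: the X-inactivation transcript Xist was well above background on 6 of 6 arrays of set 4 and on 0, 0 and 2 of 6 arrays of the other sets, whereas Ddx3y, Eif2s3y and Uty, genes of the Y chromosome, exceeded it on 0 of 6 arrays of set 4 and on 6 of 6 of each other set. Kdm5d, another Y chromosome gene, was above background on 6 of 6 arrays of every set, set 4 included. Each result is therefore also given without set 4 where that changed a call, and its part in the results was not tested otherwise. On single arrays, 53.1% to 71.4% of gene probes gave a signal well above background. The macrophage markers Adgre1 and Csf1r were above background on all 24 arrays, and the activation marker Nos2 rose from between -2.63 and -2.01 in WT M0 to between 7.61 and 8.11 in WT M1, in the log2 units defined next. Slc2a1 itself overlapped between genotypes in every state, for example at 2.91 to 4.37 in WT M2 and 3.04 to 3.64 in KO M2. Because the deleted exons are not given, that probe does not check the labels.

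Levels are log2 intensities relative to the 75th percentile of the gene probes of the same array, so that 0 is that percentile. Differences were tested with limma over all 39038 probes, and a probe was called where its Benjamini-Hochberg adjusted p was under 0.05. Levels of different probes are not compared, only how much each one changed.

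**Figure D1:**
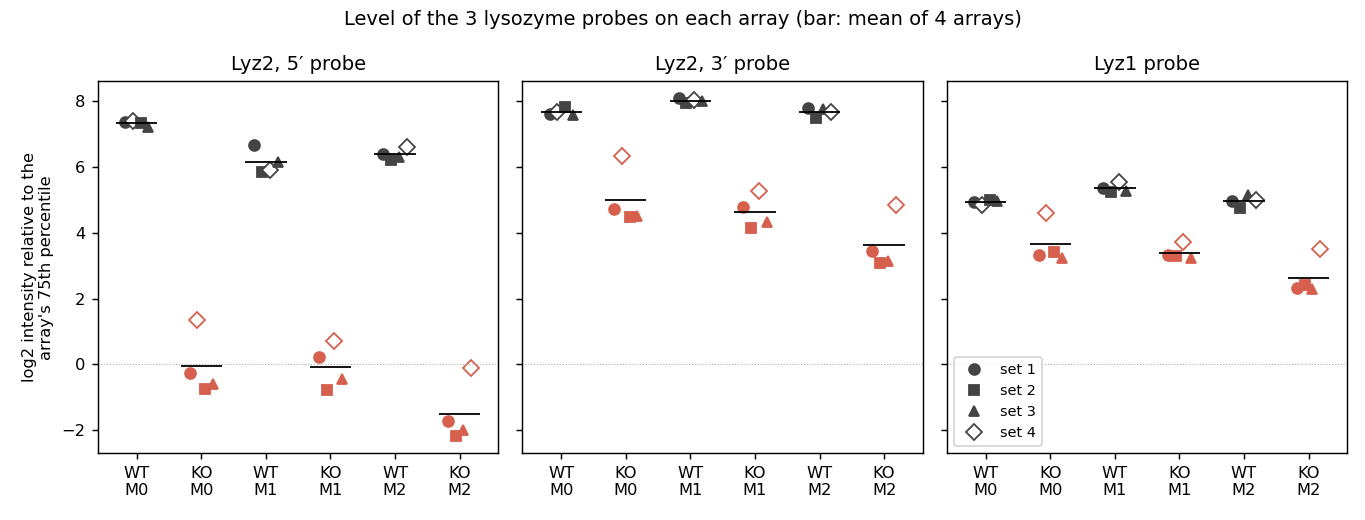
The level of each lysozyme probe (log2 intensity relative to the array's 75th percentile, vertical axis) is plotted for the 4 arrays of each genotype and state, with the mean as a bar and set 4 as open diamonds. For every probe the KO arrays lie below the WT arrays, and the open diamond is the highest KO point in each of the 3 states.

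Loss of Lyz2 message at its 5′ end was the largest fall between genotypes on the array in each of the 3 states. In unstimulated cells the Lyz2 5′ probe stood at 7.37, 7.40, 7.33 and 7.22 in WT replicates 1 to 4 and at -0.25, 1.36, -0.75 and -0.58 in KO replicates 1 to 4. The highest KO array was thus far below the lowest WT array. KO minus WT was -7.38 (SE 0.43), a residual level of 0.601% of WT (limma adjusted p = 3.9e-09), and it ranked 1st from the bottom of the 39038 probes.

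The Lyz2 5′ probe in M1 cells read 6.66, 5.83, 5.90 and 6.14 on WT arrays and 0.24, -0.78, 0.71 and -0.44 on KO arrays. The genotype difference was -6.20 (SE 0.43), leaving 1.36% of WT (limma adjusted p = 5.9e-10). In M2 cells the readings were 6.40, 6.21, 6.28 and 6.59 in WT and -1.71, -2.18, -1.97 and -0.11 in KO. There the difference was -7.87 (SE 0.43), or 0.429% of WT (limma adjusted p = 1.3e-09). In both states it again ranked 1 of 39038 from the bottom. As raw brightness, the WT arrays ran from 110377 to 397593 units and the KO arrays from 463 to 5930 units over the 3 states. The KO signal was therefore small but still well above background on every KO array.

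The Lyz2 3′ probe fell much less. In M0 it read 7.59, 7.67, 7.82 and 7.58 on WT arrays and 4.72, 6.33, 4.46 and 4.50 on KO arrays. Replicate 2 of the KO group, an array of set 4, was well above its 3 fellows, yet still below every WT array. KO minus WT was -2.66 (SE 0.37), or 15.8% of WT, with a limma adjusted p of 0.0020. With the spread taken from the 8 M0 arrays alone the adjusted p was 0.34, so this call rests on sharing the spread over 24 arrays.

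In M1 the Lyz2 3′ probe read 8.09, 7.93, 8.02 and 7.98 in WT and 4.77, 4.14, 5.27 and 4.33 in KO. The difference was -3.37 (SE 0.37), or 9.65% of WT (limma adjusted p = 2.2e-07). In M2 it read 7.78, 7.49, 7.75 and 7.67 in WT and 3.46, 3.08, 3.12 and 4.85 in KO. That gave -4.04 (SE 0.37), or 6.06% of WT (limma adjusted p = 6.6e-06). By size the 3′ probe ranked 6th in M0, 26th in M1 and 3rd in M2 from the bottom. In KO cells the 3′ probe thus kept between 6.06% and 15.8% of its WT level over the 3 states, while the 5′ probe kept at most 1.36%. Whether Lyz1 message adds to the reading of the 3′ probe, or Lyz2 message to that of the Lyz1 probe, was not tested.

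The probe of Lyz1, the neighbour without the Cre insertion, also read lower in KO cells, and was called in M1 and M2 but not in M0. In M0 it read 4.93, 4.83, 5.00 and 4.96 on WT arrays and 3.33, 4.58, 3.42 and 3.24 on KO arrays. All KO arrays lay below all WT arrays, but KO replicate 2 (set 4) differed from WT replicate 2 by -0.25 alone. KO minus WT was -1.29 (SE 0.26), 41.0% of WT, and did not pass the test (limma adjusted p = 0.119). Without set 4 it was -1.63 and passed (limma adjusted p = 1.4e-06), as it did without KO M0 replicate 2 alone at -1.60 (limma adjusted p = 0.0014). With the set as a block it passed as well, at an adjusted p of 0.021.

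In M1 the Lyz1 probe read 5.35, 5.23, 5.53 and 5.28 for WT arrays, and for KO arrays 3.32, 3.28, 3.73 and 3.24. The difference was -1.95 (SE 0.26), or 25.8% of WT (limma adjusted p = 2.6e-06). In M2 it read 4.96, 4.74, 5.15 and 4.99 in WT and 2.31, 2.42, 2.29 and 3.51 in KO. There it was -2.33 (SE 0.26), or 20.0% of WT (limma adjusted p = 0.00014), though with the spread of the 8 M2 arrays alone the adjusted p was 0.096. Lyz1 ranked 44th from the bottom in M0, 813th in M1 and 9th in M2.

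The counts of called lysozyme probes have to be read against how many probes were called at all. In M0, 2 of 3 lysozyme probes were called lower, where 0.0333% of all probes were. In M2, 3 of 3 were called lower against 0.0256%. In M1, 3 of 3 were called lower against 21.0%, so that in this state a call alone says little. All 4 KO arrays lay below all 4 WT arrays for 3 of 3 lysozyme probes in each state, against 1.58% of probes in M0, 20.7% in M1 and 0.780% in M2. Averaged over the states, KO minus WT was -7.15 (SE 0.25) for the Lyz2 5′ probe, -3.36 (SE 0.21) for the 3′ probe and -1.86 (SE 0.15) for Lyz1, and 3 of 3 were called lower against 13.6% of all probes.

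**Figure D2:**
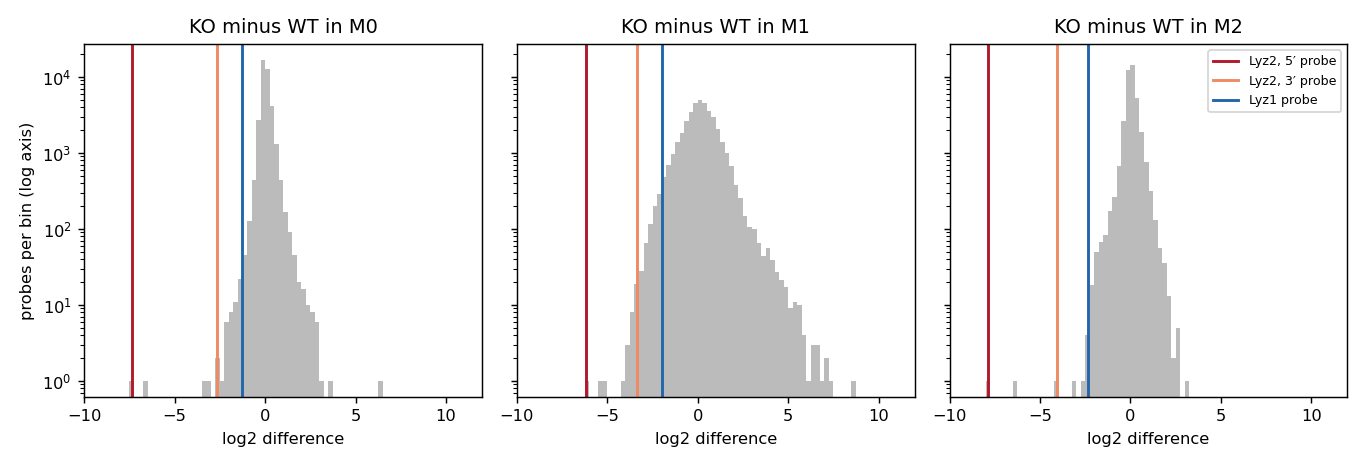
The distribution of KO minus WT (log2, horizontal axis) over all 39038 probes tested is shown for M0, M1 and M2 as the number of probes per bin on a log axis, with the 3 lysozyme probes as coloured lines. The Lyz2 5′ line is at the left edge in each state (-7.38, -6.20 and -7.87), and the distribution is broad in M1 and narrow in M0 and M2.

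The genotype difference held its direction in each of the 4 sets. For the Lyz2 5′ probe the M0 sets lay between -8.07 and -6.03, the M1 sets between -6.61 and -5.18 and the M2 sets between -8.39 and -6.70. In the same order of states, those of the 3′ probe lay between -3.36 and -1.34, -3.79 and -2.75, and -4.62 and -2.82. Those of Lyz1 lay between -1.72 and -0.25, -2.04 and -1.80, and -2.85 and -1.48. The smallest of the 4 differences belonged to set 4 in all 9 cases, as the plot of differences by set shows. The KO array of set 4 was the highest of its group for all 3 probes in all 3 states, by 0.45 to 1.89 over the mean of the others, whereas the WT arrays of set 4 differed from their fellows by -0.31 to 0.30. Without set 4 the Lyz2 5′ differences were -7.83, -6.53 and -8.25 in M0, M1 and M2, and those of the 3′ probe were -3.10, -3.58 and -4.45. Those of Lyz1 in M1 and M2 were -2.01 and -2.61. When WT and KO replicates of a state were paired by number within the 8 arrays of that state, the adjusted p rose past 0.05 for the 5′ probe in M0 (0.055), for the 3′ probe in M0 (0.45) and M2 (0.14) and for Lyz1 in M2 (0.21).

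**Figure D3:**
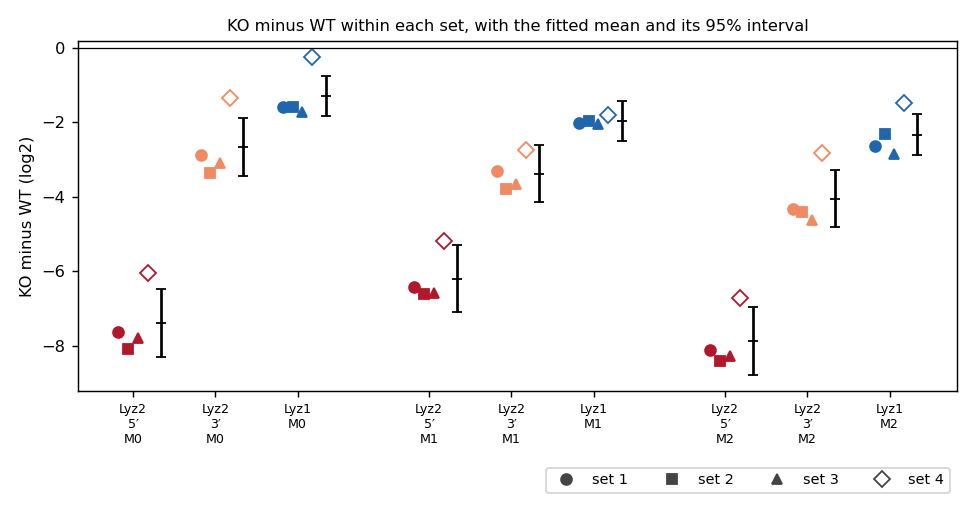
KO minus WT (log2, vertical axis) is plotted within each of the 4 sets for every lysozyme probe and state, beside the fitted mean and its 95% interval in black. All 36 points lie below 0, and set 4 (open diamonds) lies closest to 0 in each of the 9 columns.

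The 3 probes changed by unequal amounts on the same arrays. The 5′ reading minus the 3′ reading of Lyz2 was -0.34 ± 0.12 (SD, n = 4) for WT against -5.06 ± 0.12 for KO in M0. After LPS and IFNγ it was -1.87 ± 0.32 for WT against -4.70 ± 0.18 for KO. After IL-4 it was -1.30 ± 0.17 for WT against -5.12 ± 0.13 for KO. Between genotypes this difference moved by -4.72, -2.82 and -3.82 in M0, M1 and M2. The KO values were tight, and set 4 was within them, with all 12 KO arrays between -5.26 and -4.53. The 3′ reading of Lyz2 minus the Lyz1 reading moved by -1.38, -1.42 and -1.72, and the 5′ reading minus the Lyz1 reading by -6.09, -4.24 and -5.54. Each of these 9 moves had 4 of 4 KO arrays below every WT array and a two-sided exact permutation p of 0.0286, which is the smallest that 4 against 4 arrays allow and stayed 0.0286 after Benjamini-Hochberg adjustment over the 9. Without set 4 the move of 5′ minus 3′ was -4.72, -2.95 and -3.80.

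**Figure D4:**
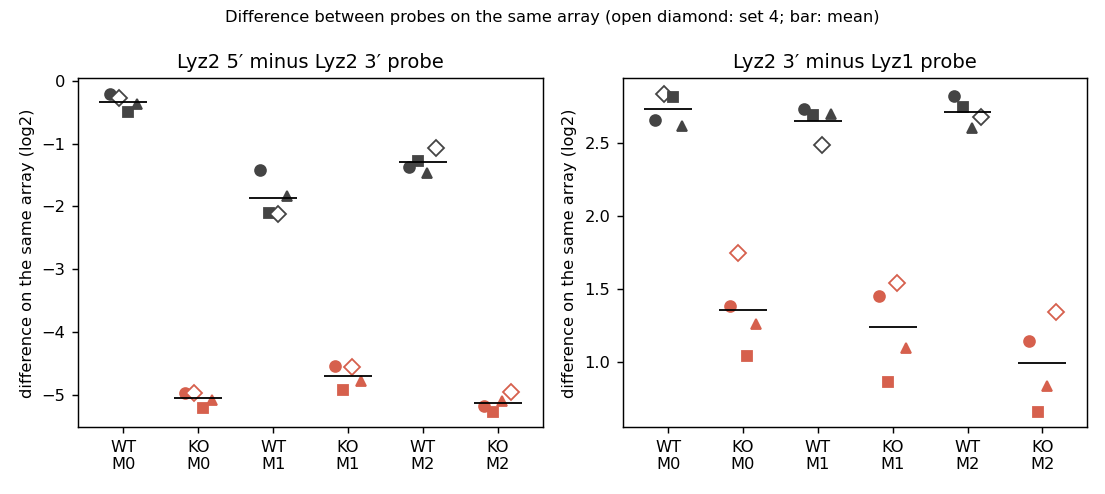
The difference between a pair of probes on the same array (log2, vertical axes) is plotted by genotype and state for Lyz2 5′ minus Lyz2 3′ (left) and Lyz2 3′ minus Lyz1 (right), with the mean as a bar and set 4 as open diamonds. On the left the WT arrays differ by state while the 12 KO arrays stay between -5.26 and -4.53. On the right the 12 WT arrays stay between 2.49 and 2.84.

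In WT cells neither probe at a 3′ end passed the test between states. M1 minus M0 in WT was 0.34 (95% interval -0.43 to 1.11) for the Lyz2 3′ probe and 0.41 (-0.12 to 0.95) for Lyz1, with limma adjusted p of 0.49 and 0.20. The former became -0.10 under quantile normalization, so its sign is not settled. M2 minus M0 in WT was 0.01 (-0.77 to 0.78) and 0.03 (-0.51 to 0.56), with adjusted p of 0.99 and 0.96. Neither M1 minus M2 value in WT passed, at 0.33 for the 3′ probe, which was -0.08 under quantile normalization, and 0.39 for Lyz1. With the spread of the 8 arrays of both groups alone, M1 minus M0 passed for the 3′ probe (adjusted p 0.033) and Lyz1 (0.017), and M1 minus M2 for Lyz1 (0.049).

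The 5′ probe of Lyz2 fell in WT cells from M0 to M1, to 43.7% of its M0 level, a difference of -1.20 (SE 0.43, limma adjusted p = 0.028). It fell in 4 of 4 sets, by values from -1.50 to -0.71. The call was lost on leaving out any 1 of 5 arrays (WT M0 replicates 1 and 2, WT M1 replicates 2, 3 and 4), with values from -1.20 to -1.09 and adjusted p from 0.051 to 0.071. From M0 to M2 it read -0.95 (SE 0.43) lower and did not pass (limma adjusted p = 0.15), although all 4 sets were negative, from -1.12 to -0.80. Without set 4 the M2 value was -1.01 and passed (limma adjusted p = 0.0095), and it also passed with the set as a block (0.040). M1 minus M2 was -0.24 (limma adjusted p = 0.69). In WT cells 1 of 3 lysozyme probes was called lower in M1 than in M0, against 22.4% of all probes lower and 47.8% in either direction. For M2 against M0 and for M1 against M2, 0 of 3 were called, against 15.0% and 47.6% of all probes in either direction.

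Lyz1 in WT cells was slightly higher in M1 than in M0 in 4 of 4 sets, by 0.23 to 0.69, and without set 4 that difference passed at 0.32 (limma adjusted p = 0.015). Its M1 minus M2 value without set 4 was 0.34 and passed too (limma adjusted p = 0.011).

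In KO cells the residual readings were lowest after IL-4. M2 minus M0 in KO was -1.44 (SE 0.43) for the Lyz2 5′ probe, -1.38 (SE 0.37) for the 3′ probe and -1.01 (SE 0.26) for Lyz1, with limma adjusted p of 0.031, 0.016 and 0.012. Thus 3 of 3 lysozyme probes were called lower, against 6.35% of all probes. Within the sets the fall was even: -1.47 to -1.39 for the 5′ probe, -1.48 to -1.26 for the 3′ probe and -1.08 to -0.95 for Lyz1, set 4 included. Leaving out KO M0 replicate 2, KO M2 replicate 2 or KO M2 replicate 3 ended the call of the 5′ probe (-0.97, -1.21 and -1.28, adjusted p 0.13, 0.11 and 0.099) and of the 3′ probe (-0.93, -1.19 and -1.21, adjusted p 0.064, 0.061 and 0.063). Leaving out KO M2 replicate 1 ended that of the 5′ probe alone (-1.37, adjusted p 0.081). With set 4 left out whole, all 3 were called, at -1.43, -1.34 and -0.99. With the spread of the 8 arrays of both groups alone none of the 3 passed (adjusted p 0.18, 0.16 and 0.15), nor did the 5′ probe under median scaling (0.054).

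M1 minus M2 in KO was 1.43 (SE 0.43) for the Lyz2 5′ probe, 1.00 (SE 0.37) for the 3′ probe and 0.76 (SE 0.26) for Lyz1, with limma adjusted p of 0.0079, 0.025 and 0.016. All 3 were called higher, against 34.5% of all probes. Under quantile normalization the 3′ probe and Lyz1 were at 0.66 and 0.54 and did not pass (adjusted p 0.17 and 0.12). The 3′ probe also fell short without KO M1 replicate 1 (0.95) or 3 (0.79) or KO M2 replicate 1 (0.95), 2 (0.82) or 3 (0.83), with adjusted p from 0.056 to 0.088. Lyz1 fell short without KO M1 replicate 3 (0.65) or KO M2 replicate 1 (0.65) or 3 (0.64), with adjusted p from 0.052 to 0.057. The spread of the 8 arrays of both groups alone gave them adjusted p of 0.080 and 0.052. M1 minus M0 in KO was -0.01, -0.37 and -0.25 for the 5′ probe, the 3′ probe and Lyz1 (adjusted p 0.98, 0.41 and 0.42), and 0 of 3 were called against 57.3% of all probes in either direction. Without KO M0 replicate 2 (set 4) they were 0.46, 0.07 and 0.06, but the high KO M1 array of set 4 then stayed in. With set 4 left out whole, the KO means in M0 and M1 were -0.53 and -0.32 for the 5′ probe. They were 4.56 and 4.42 for the 3′ probe and 3.33 and 3.28 for Lyz1, so only the 5′ probe changed direction.

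KO M2 had the lowest mean of the 6 groups for all 3 probes. The group means of the 3′ probe ran from WT M1 on top (7.93 to 8.09 over its arrays) to 7.67 in WT M2, 7.67 in WT M0, 5.00 in KO M0, 4.63 in KO M1 and 3.63 in KO M2. Those of Lyz1 ran in the same order, from 5.35, 4.96 and 4.93 in WT to 3.64, 3.39 and 2.63 in KO. Among neighbours in these orders, the WT states were not told apart, nor were KO M0 and KO M1, while KO M2 was below KO M1. The 5′ probe instead had WT M0 on top at 7.33, then WT M2 at 6.37 and WT M1 at 6.13, and then KO M0 at -0.05, KO M1 at -0.07 and KO M2 at -1.49. Its WT M2 arrays all lay below its WT M0 arrays, although that step did not pass the test over 24 arrays, and the 2 higher KO means changed places without set 4, at -0.53 in M0 and -0.32 in M1.

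Whether the genotype difference itself depended on the state was tested as an interaction. KO minus WT in M1 less that in M0 was 1.18 (SE 0.61) for the 5′ probe, -0.71 (SE 0.52) for the 3′ probe and -0.67 (SE 0.36) for Lyz1, with limma adjusted p of 0.16, 0.35 and 0.19. None of the 3 was called, against 30.3% of all probes. Without set 4 the 5′ value was 1.29 and passed (limma adjusted p = 0.0092), as it did without KO M0 replicate 2 alone at 1.66 (0.021). KO minus WT in M2 less that in M0 was -0.49, -1.38 and -1.04, with unadjusted p of 0.44, 0.016 and 0.0099 and limma adjusted p of 1.00 each. Called probes in this interaction made up 0% of the 39038 (0 by limma after adjustment, 412 at an unadjusted p under 0.05).

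No other gene around the locus was called in M0 or M2. Within 0.5 Mb of the Lyz2 probes the files place 39 probes of other names, of which 26 were tested. In M0 and M2, 0 of 26 were called, against 0.0410% and 0.0589% of all probes in either direction. Their KO minus WT ran from -0.09 to 0.66 in M0 (median 0.09, beside -0.01 for all probes). In M2 it ran from -0.40 to 0.80 (median 0.12, beside 0.04). Of the 26, 20 were above 0 in M0, 15 in M1 and 19 in M2, and these signs were not tested. In M1, 8 were called higher and 5 lower, against 45.3% of all probes in either direction. Averaged over the states 8 were higher and 2 lower, against 29.1% of all probes in either direction, with a median of 0.22 beside 0.05 for all probes. The nearest tested probe, 45.1 kb away, carries the Riken clone name 9530003J23Rik. It was well above background on 7 arrays, read 0.53 in M0, 0.46 in M1 and 0.74 in M2, and was not called. Yeats4, next at 61.9 kb, encodes a reader of acetylated histones and was at 0.30 in M0, 0.45 in M1 and 0.22 in M2. It was called in M1 (limma adjusted p = 7.4e-05) and over the average of the states (0.32, limma adjusted p = 2.2e-05). Of 4 probes for Cpsf6, a pre-mRNA cleavage factor on the Lyz1 side between 62.7 and 76.8 kb away, 2 were called higher in M1, at 1.18 and 2.05, and the others read 0.41 and -0.09. Mdm2, the ubiquitin ligase of p53, read 0.00 and 0.12 on its 2 probes in M0, 0.07 and 0.21 in M1, and in M2 0.17 and 0.33.

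**Figure D5:**
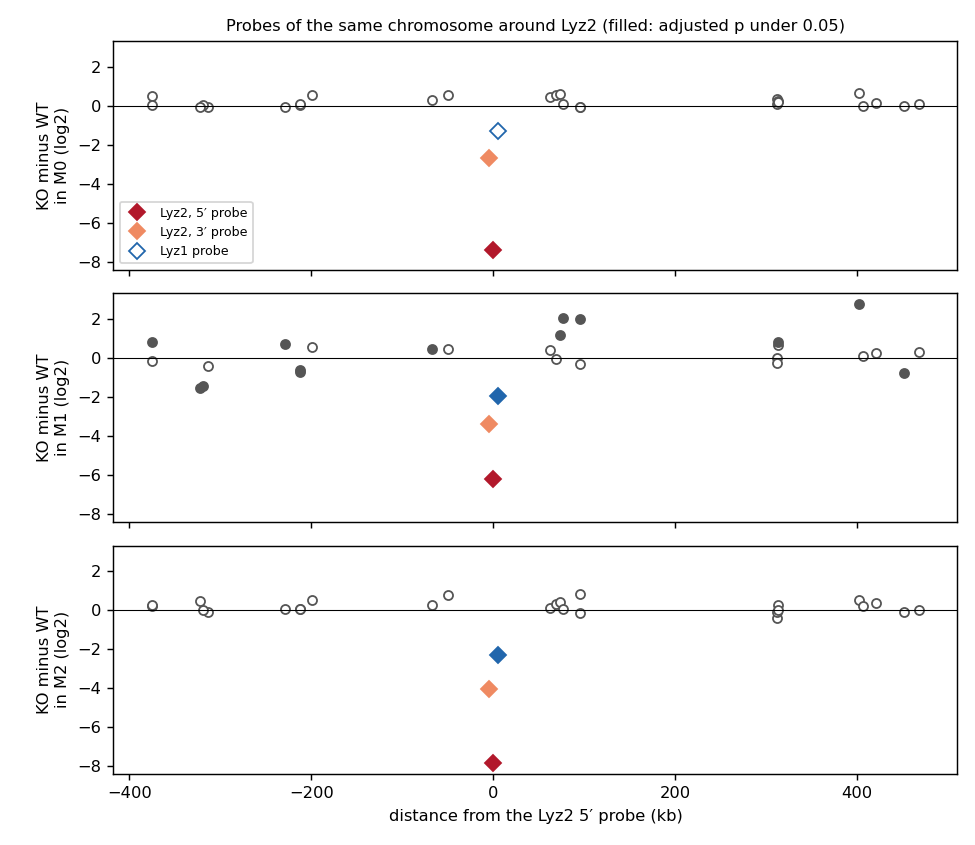
KO minus WT (log2, vertical axes) is plotted against the distance in kb from the Lyz2 5′ probe for the tested probes within 0.5 Mb, with filled symbols where the limma adjusted p was under 0.05 and the lysozyme probes as coloured diamonds. In M0 and M2 the 26 neighbours lie between -0.40 and 0.80, and the 3 lysozyme probes lie below them all.

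The counts of called genes in the lists that were set beside the lysozyme probes have the same backgrounds: 0.0410% of all probes were called in M0, 0.0589% in M2 and 45.3% in M1. A count of 0 in M0 or M2 is therefore what most lists of this size would give, and a count in M1 near or under that share is not particular to a list.

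The other members of the lysozyme family were few on these arrays. Of 10 listed family genes, 6 were measured. Besides Lyz1 and Lyz2 these were Lyzl4, Lyzl6, the sperm acrosome gene Spaca3 and the milk protein gene Lalba, none of which was called in M0 or M2. In M1, Spaca3 was higher by 0.89 (limma adjusted p = 0.0069) and Lalba lower at -0.46 (0.0094). Lyzl4 was at 0.98 (0.23) and Lyzl6 at -0.19 (0.59) in M1.

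Of the transcription factors reported to act on the lysozyme M promoter or on myeloid fate, 0 of 10 were called in M0 and in M2. Their medians there were -0.05 and 0.00, beside -0.01 and 0.04 for all probes. In M1, 4 were lower and 1 higher, against the 45.3% of all probes, with a median of -0.33 beside 0.15 for all probes. Spi1, which encodes PU.1, was at -1.37 (SE 0.09), Cebpe at -1.73 (SE 0.48), Runx1 at -0.83 (SE 0.13) and Gabpa at -0.41 (SE 0.14). Myb, a factor of immature cells, was called higher in KO M1 (limma adjusted p = 0.022), but it was well above background on only 1 of 4 KO arrays and 0 of 4 WT arrays, so no fold is given. Cebpa and Cebpb read 0.24 and 0.12 and were not called.

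Genes that sense or carry the muropeptides lysozyme releases likewise had 0 of 13 called in M0 and in M2, with medians of -0.07 and 0.03. In M1, 3 were higher and 4 lower, against 45.3% of all probes. The peptidoglycan receptor genes Nod2 and Nod1 were lower at -1.88 and -1.06, and the peptide carrier genes Slc46a3 and Slc15a4 at -1.40 and -1.04. Tlr2 and the NOD adaptor kinase gene Ripk2 were higher at 1.67 and 0.90, and Slc15a2 at 4.32, with 3 of 4 WT M1 arrays above background and 3.51 under normexp background correction. Among other antimicrobial protein genes 0 of 15 were called in M0 and in M2, and in M1 5 were higher and 0 lower, against 45.3% of all probes. These were Hamp, which encodes hepcidin, at 5.60 (3 of 4 WT M1 arrays above background, 4.44 under normexp), the neutrophil granule genes Ngp at 2.36 and Camp at 2.28, the chitinase-like gene Chil3 at 2.25 and the phospholipase gene Pla2g2d, for which no fold is given since 1 of 4 KO and 0 of 4 WT arrays were above background.

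Neutrophils are the other main source of lysozyme M, so their markers were set beside these results. Of 12 neutrophil markers, 0 were called between genotypes in M0 or M2, and in M1 3 were higher and 1 lower in KO, against 45.3% of all probes. The higher ones were S100a9, at 2.26, and Camp and Ngp, whose values are given above. The lower one was Ly6g, a surface marker, at -2.75, against the direction of the list as a whole. The median KO minus WT of the 12 markers in M1 was 1.21, beside 0.15 for all probes. Their summed level, in multiples of the 75th percentile, ran from 108 to 269 in WT M0 and from 76.7 to 319 in KO M0. In M2 it ran from 97.1 to 205 for WT and from 72.3 to 286 for KO. In M1 it ran from 22.5 to 77.6 in WT (mean 53.7) and from 73.9 to 188 in KO (mean 131). Those ranges overlapped only between 73.9 and 77.6. The 9 macrophage markers summed to 597 to 646 in WT M0 against 525 to 645 in KO M0, and 0 of 9 were called in M0 or M2. In M1, Cd68 was higher at 0.52, and those lower included Mertk at -1.50 and Spi1 at -1.37. Of the markers of other cells, none was called in M0 or M2, and in M1 2 of 6 dendritic cell markers were higher and 1 lower, 2 of 4 B and T cell markers and 2 of 4 mast cell and basophil markers were higher, and 0 of 5 fibroblast and 0 of 1 erythroid markers were called. The part of any of these cells in the lysozyme readings was not tested. Across the listed genes and neighbours called in M1, 46 probes, all 46 kept their direction under the 4 other scaling and background settings and 38 kept their call under each. The other 8 lost it. Ngp (2.29 and 2.08) and the mast cell marker Fcer1a (0.35 and 0.42) did so under quantile normalization and median scaling, and Myb under quantile normalization and normexp. Siglech (0.33), Cd209a (0.47) and Cd79a (1.18) did so under quantile normalization, which left 0 of the 2 higher dendritic cell markers and 1 of the 2 higher markers in each of the lymphocyte and mast cell lists. Ripk2 (0.62) and Yeats4 (0.17) did so under median scaling.

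Genes with the pattern most like the Lyz2 3′ probe were ranked by Pearson correlation over the 24 arrays, which share the genotype and state groups and are a description without a test. The Lyz1 probe reached 0.989 and the Lyz2 5′ probe 0.975. Of 14985 other genes those among the highest were Atf7 (0.955), Hhipl1 (0.856), Platr9 (0.741) and Ggcx (0.733). Atf7, which encodes a transcription factor of the ATF family, read -6.58, -5.46 and -6.42 for KO minus WT in M0, M1 and M2, the largest falls among these genes in each state. Over the 12 WT arrays alone the Lyz2 3′ probe went with Lyz1 (0.899) but not with its own 5′ probe (-0.456), and the most alike genes were Exosc2 (0.964), Cxcl11 (0.963), Adam26b (0.957), Ptgdr2 (0.954) and Ctss (0.952), the last encoding the lysosomal protease cathepsin S. For Lyz1 over the same 12 arrays they were Tspan31 (0.949), Cdc42 (0.941), Cyb5r4 (0.935), Xpo6 (0.932) and Ap5b1 (0.930).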

How the data were processed

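The 24 deposited scanner files hold spot intensity values on a linear scale. Agilent's Feature Extraction, version 10.7.3.1 per the file headers and 9.1 per the submitters' processing notes, made them with spatial and multiplicative detrending on, and the processed signal the authors deposited is already background-corrected. Control spots (3671 of 62976) were left out, log2 of the processed signal was taken relative to the 75th percentile of the gene probes of each array, and outlier spots were removed. Probes well above background on at least 4 of 24 arrays were kept. limma 3.58.1 in R 4.3.3 fitted 1 mean per group over all 24 arrays (18 residual degrees of freedom) with Benjamini-Hochberg adjustment over 39038 probes, so that the groups share 1 estimate of the spread. Differences between probes on the same array were tested by exact permutation (scipy 1.17.1). Both procedures were tested on simulated data. The authors' value table was not used here.

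The members and gene lists were chosen with earlier results of these data known. The genes named were both lysozyme genes and the floxed gene, their family, neighbours within 0.5 Mb, up to 6 called genes of each list of promoter regulators, muropeptide handling and antimicrobial proteins, markers of macrophages and of other cell types, and the 5 genes most alike by correlation, each gene by its brightest probe. Of the gene probes 59.9% carried a name found in RefSeq. Promoter letters come from RefSeq on GRCm38.p6, where both genes matched. WT and KO arrays of a state with the same replicate number deviated from their group means together (r from 0.16 to 0.84 over 36913 probes, every pair above 0.1). The numbers were therefore taken to pair the genotypes within a state, but not across states (r from -0.43 to 0.57). Some unlike numbers went together more closely. In M0, WT replicate 3 with KO replicate 4 gave 0.37, beside 0.24 for the pair numbered 3 and 0.16 for the pair numbered 4. Arrays of the same set also went together across states (r from 0.08 to 0.77). The main fit used neither the numbers nor the sets. Alternatives covered scaling, background correction, filters, blocks, weights and leaving out arrays. Some genes that the naming rules select are not reported here.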

Additional observations from a re-analysis of the deposited data

Results flagged for a closer look

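In 4 of the 18 combinations of probe and group examined, the highest array stood apart from its 3 fellows, where about 5% would by chance. These were the Lyz2 3′ probe in KO M0 (6.33) and the Lyz1 probe in KO M0 (4.58), KO M1 (3.73) and KO M2 (3.51). All 4 are KO arrays of set 4, the set with Xist and without Ddx3y, Eif2s3y and Uty above background, though with Kdm5d, and the WT arrays of that set did not stand apart. The part of the sex of the mice was not tested. For Lyz1, M1 minus M0 was above 0 in 4 of 4 sets in WT and below 0 in 4 of 4 in KO, a difference between genotypes of -0.67 that did not pass the interaction test (limma adjusted p = 0.19). Neither change was called. In KO the value was -0.86 in set 4 and -0.14 or nearer to 0 in the other sets. It became 0.06 without KO M0 replicate 2 alone, which leaves the KO M1 array of set 4 in. With set 4 left out whole, the KO means were 3.33 in M0 and 3.28 in M1. The direction thus held without set 4, but most of the size came from that set.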

How the results depend on the processing

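Of 654 values of the 36 probe-by-comparison results under alternatives, 608 kept their side of the threshold, 28 lost the call and 18 gained it. Called values that changed sign numbered 0. Some values that were not called did change sign, such as M1 minus M0 of Lyz2 3′ in WT (0.34, and -0.10 under quantile normalization). Causes were not tested. The spread of 8 arrays alone lost Lyz2 3′ in M0 (-2.66), Lyz1 in M2 (-2.33), all 3 probes for M2 minus M0 in KO (-1.44, -1.38 and -1.01), and Lyz2 3′ (1.00) and Lyz1 (0.76) for M1 minus M2 in KO. It gained M2 minus M0 (-0.95) of Lyz2 5′ and M1 minus M0 of Lyz2 3′ (0.34) and Lyz1 (0.41) and M1 minus M2 of Lyz1 (0.39) in WT. The replicate block over 24 arrays changed no call (Lyz2 3′ in M0 -2.66, adjusted p 0.011, and Lyz1 -1.29, 0.21). The replicate block within the 8 arrays of a state, chosen after seeing the data, lost Lyz2 5′ (-7.38) and 3′ (-2.66) in M0 and Lyz2 3′ (-4.04) and Lyz1 (-2.33) in M2. Scaling on the median lost M2 minus M0 of Lyz2 5′ (-1.30) and M1 minus M2 of Lyz2 3′ (0.74) and Lyz1 (0.50) in KO. The latter pair was also lost under quantile normalization (0.66 and 0.54) and with the percentile over probes above background on all arrays (0.84 and 0.60). Set as a block gained Lyz1 in M0 (-1.29) and M2 minus M0 of Lyz2 5′ in WT (-0.95). Array weights gained both (-1.54 and -0.99) and the M1 less M0 interaction of Lyz2 5′ (1.26). Leaving out set 4 gained all 3 (-1.63, -1.01 and 1.29) and, in WT, M1 minus M0 (0.32) and M1 minus M2 (0.34) of Lyz1. Where leaving out 1 array changed the call of a result, the range over every array left out follows. M1 minus M0 of Lyz2 5′ in WT ran from -1.37 to -1.09. M2 minus M0 in KO ran from -1.90 to -0.97 (5′) and from -1.78 to -0.93 (3′). M1 minus M2 in KO ran from 0.79 to 1.41 (3′) and from 0.64 to 1.05 (Lyz1). The M1 less M0 interaction of the 5′ probe ran from 0.92 to 1.66, with 1 of 16 values called. Lyz1 in M0 ran from -1.60 to -1.15, with 1 of 8 called. Over all probes, the median of KO minus WT in M1 was 0.15 and became -0.03, -0.13 and 0.23 under quantile, median and normexp settings, with 53.6% of calls higher against 44.1%, 34.6% and 63.0%. Across the scalings and background settings KO minus WT in M1 stayed between -6.47 and -6.11, -3.65 and -3.35, and -2.23 and -1.93 for Lyz2 5′, Lyz2 3′ and Lyz1. The signal was well above background on every array for all 3 probes. Whether the brightest WT readings were compressed was not tested.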
